A study of Drosophila melanogaster with 6 samples.

Results

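The proteasome is the barrel-shaped protease that destroys proteins tagged with ubiquitin. Its core particle is made of alpha rings, which gate the entrance, and beta rings, which carry the catalytic threonines. The regulatory particle that caps it has a base of ATPases and scaffolds, which bind and unfold the substrate, and a lid, which removes the ubiquitin chain. In the early Drosophila embryo the mother supplies both the complex and its transcripts, and ubiquitin-dependent destruction is known to drive the nuclear cycles and the clearance of maternal proteins.

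The genes examined here are those with a probe set of their own whose symbol in the platform annotation begins with Prosalpha or Prosbeta, or with Rpn or Rpt and a digit. The rule gave 40 genes of the 11982 with a probe set of their own, and each of the 40 is read by 1 probe set. They comprise 26 constitutive subunits, of which 6 belong to the alpha ring, 6 to the beta ring, 4 to the base ATPases, 3 to the base scaffolds and ubiquitin receptors and 7 to the lid. The other 14 are paralogs whose symbol carries an R or a T after its number. Several of these are known from the male germ line, where some replace their constitutive partner in the proteasome of developing sperm. The probe set shared by Prosalpha1 and Prosalpha1R has several symbols and is no member, and other subunits were not analysed here.

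The 6 arrays (Affymetrix, 1 colour) held RNA of pooled, dechorionated embryos collected at 25 °C and 2 to 4 h old. In the brakeless group (3 arrays) the mothers were FRT2R G13 bks278 over FRT2R G13 ovoD1, and the fathers carried bks278 on the same FRT chromosome over CyO. In the control group (3 arrays) FRT2R G13 stood in place of the mutant chromosome in the mothers, again over ovoD1, and the fathers were FRT2R G13. The FRT2R G13 insertion and the ovoD1 homolog, a dominant sterile that lets only recombined germ cells make eggs, are therefore common to both groups. The bks278 allele is a strong allele of brakeless, a nuclear co-regulator of transcription. By the cross, the brakeless embryos came from eggs of homozygous mutant germ cells, and a pool could mix those with and without a paternal wild-type copy. The labels describe biological replicates but do not say which cages or collections they came from, so the p-values measure the spread between these pools. Less RNA per cell and fewer cells of a type cannot be told apart in pooled embryos.

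All values below are log2 expression values as the authors deposited them, made with RMA, and a difference is brakeless minus control. Probe sets differ in how strongly they bind, so levels of different genes are not set against each other. Of the 3 probe sets of brakeless itself (sbb), the brightest read 5.33, 4.45 and 4.61 in the brakeless group against 6.01, 6.71 and 6.06, lower in every array (limma adjusted p = 0.320), and the other two, dim ones, overlapped; whether any lies in the part that the allele changes is not stated. The arrays had medians from 3.59 to 3.73 over all probe sets. Control replicate 3 stood apart, with a mean correlation of 0.964 with the other arrays against 0.979 to 0.986 for the rest. Transcripts that mark the age were present: the 8 measured cleared maternal genes had a log2 summed level of 13.8 to 14.3 in brakeless and 13.2 to 14.2 in control arrays, and the 9 early zygotic genes 11.3 to 11.6 and 11.8 to 11.9. Of these 9 genes 3 had positive and 6 negative differences, and without Sry-alpha (9.44 to 9.74 against 10.45 to 10.84) the summed levels overlapped, at 10.7 to 11.1 and 10.7 to 11.2. Muscle genes of older embryos varied more, from 7.68 to 10.1 in brakeless and from 8.19 to 10.4 in control arrays over 7 of the 10 listed. All 7 had negative differences, with a median of -0.67, which was -0.25 without brakeless replicate 1. Of the 8 cleared maternal genes 7 had positive differences and 1 a negative one, with a median of 0.48, which was 0.17 without control replicate 3. In both lists every adjusted p was 0.998 by limma. Whether the groups differed in age was not tested. The 12 measured eggshell and follicle cell genes lay between 7.29 and 7.63 on every array.

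None of the 40 proteasome genes passed the test (limma, Benjamini-Hochberg adjusted p under 0.05 over all 18769 probe sets). Over all probe sets 26 passed, which is 0.139%. The constitutive subunits had log2 differences from -0.46 for Rpn12 to 0.47 for Rpt5, with 12 positive and 14 negative and a median of -0.02. The paralogs had a median of 0.03 and ran from -1.28 for Rpt3R to 0.27 for Prosbeta4R2. The median over all probe sets was 0.002. The median size of a difference, regardless of sign, was 0.13 for the constitutive subunits, 0.12 over all probe sets and 0.24 over the 7508 probe sets above the 60th percentile of mean signal, where the constitutive subunits lie. At an unadjusted p under 0.05 there were 5 of the 40 members, against 898 of all 18769 probe sets (4.78%). Above the 60th percentile 603 of the 7508 probe sets were at that p. The 5 members were Rpt5 and Rpn11 on the higher side, Rpn12 and Rpt3R on the lower side, and Prosbeta4R2, higher at a dim signal. That count was 8 without control replicate 2, 3 without brakeless replicate 1, and 2 without any 1 of brakeless replicate 2, brakeless replicate 3 and control replicate 3.

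**Figure D1:**
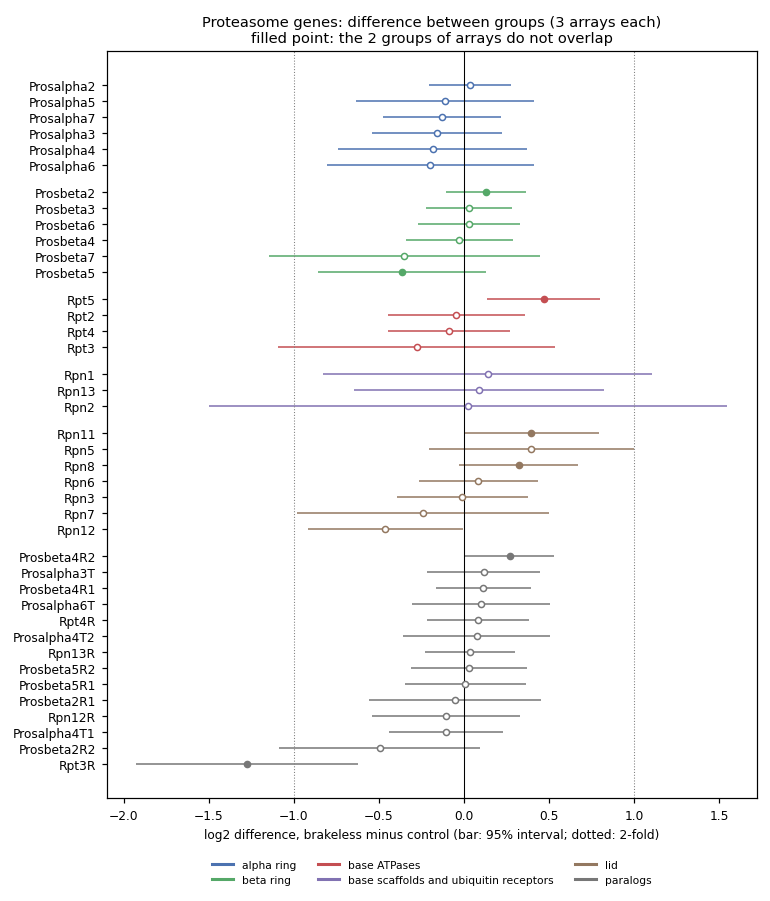
The log2 difference (brakeless minus control, horizontal axis) of each of the 40 proteasome genes with its 95% interval from the limma fit, grouped and coloured by role; filled points are genes whose brakeless and control arrays do not overlap, and dotted lines mark a 2-fold change. Most points lie close to 0, Rpn2 has the widest interval (-1.50 to 1.55), and Rpt3R at -1.28 is the only point beyond a dotted line.

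The intervals show what size of change the arrays leave room for. For 22 of the 26 constitutive subunits the 95% interval lay inside a 2-fold change in either direction. For 11 it lay inside a 1.5-fold change. The 4 whose interval reached past 2-fold were Prosbeta7, Rpt3, Rpn1 and Rpn2. Among the paralogs 12 of 14 lay inside a 1.5-fold change, but RMA compresses differences near the background, so for dim probe sets this describes the deposited values and not the transcripts.

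In 7 of the 40 members (17.5%) the brakeless and control arrays did not overlap, with brakeless above in 5 and below in 2. Of all probe sets 10.1% had groups that did not overlap, and of those above the 60th percentile of mean signal 11.6%. The 7 were Rpt5, Rpn11, Rpn8, Prosbeta2 and Prosbeta4R2 on the higher side and Prosbeta5 and Rpt3R on the lower side. The separations were mostly narrow.

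**Figure D2:**
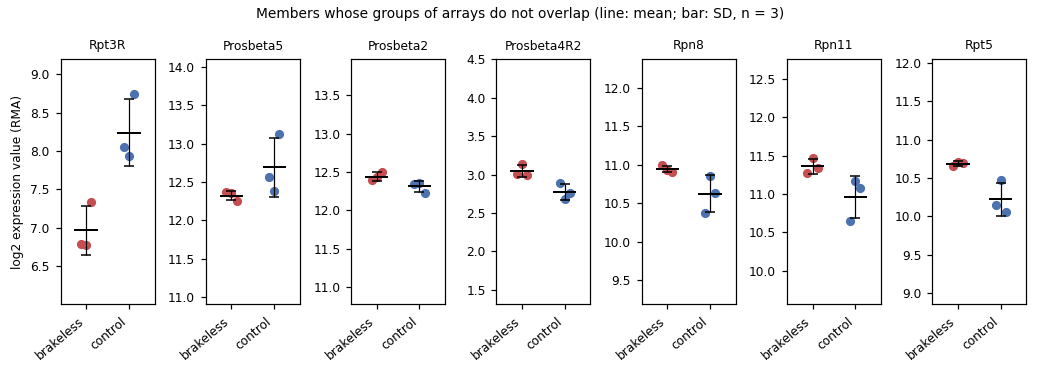
Log2 expression values (vertical axis, each panel on an axis of the same length) of the 7 genes whose groups of arrays do not overlap, with brakeless arrays in red and control arrays in blue; the line is the mean and the bar the SD of 3 arrays. The gap is wide for Rpt3R (7.33 against 7.94 for the nearest arrays) and narrow for Prosbeta5 and Prosbeta2.

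The alpha ring, whose amino termini form the gate of the barrel, had 5 of 6 negative differences and a median of -0.14, and none passed the test. Prosalpha6 (2L, 10221351 to 10222546, RefSeq Release 6 plus ISO1 MT) had the lowest difference of the ring. It read 11.8, 11.6 and 11.8 in brakeless arrays and 11.9, 11.4 and 12.4 in control arrays, a difference of -0.20 (SE 0.25, interval -0.81 to 0.41). The highest control value came from control replicate 3, and the 2 groups overlapped. Prosalpha2 (3R, 12431321 to 12432556) had the highest difference. Its brakeless arrays read 12.3, 12.4 and 12.5, and its control arrays spanned only 12.38 to 12.39, a difference of 0.04 (SE 0.10). Prosalpha3, Prosalpha4, Prosalpha5 and Prosalpha7 had differences from -0.19 for Prosalpha4 to -0.11 for Prosalpha5. In these 4 and in Prosalpha6 control replicate 3 was the highest of the 6 arrays. Without it the differences of Prosalpha4, Prosalpha5 and Prosalpha6 were 0.04, 0.06 and 0.04, so their sign rested on that array, and those of Prosalpha3 and Prosalpha7 were both -0.01.

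The beta ring holds the proteolytic sites, and the 2 catalytic subunits among the members pointed in opposite directions. Prosbeta2, the subunit with trypsin-like activity, lies on 3L at 14999951 to 15001319. Its brakeless arrays read 12.39, 12.43 and 12.50 and its control arrays 12.35, 12.36 and 12.23. Every brakeless array was above every control array, but the difference was 0.13 (SE 0.10, interval -0.11 to 0.37, unadjusted p = 0.232 and adjusted p = 0.998 by limma). Prosbeta5, with chymotrypsin-like activity and the main target of proteasome inhibitor drugs, lies on 2R at 10819978 to 10821178. It read 12.37, 12.35 and 12.25 in brakeless arrays and 12.57, 12.38 and 13.12 in control arrays. The groups were apart by no more than the step from 12.37 in brakeless replicate 1 to 12.38 in control replicate 2, and control replicate 3 stood far above the rest. The difference was -0.37 (SE 0.20, interval -0.86 to 0.13, limma adjusted p = 0.998) and -0.15 without control replicate 3. The structural subunits Prosbeta3, Prosbeta4 and Prosbeta6 had differences of 0.03, -0.03 and 0.03, and their values over the 6 arrays lay between 12.05 and 12.44. Prosbeta7, whose tail reaches across to the facing beta ring, read 11.6, 11.9 and 12.2 against 12.3, 11.6 and 12.8. Its groups overlapped widely, with a difference of -0.35 (SE 0.33). That difference was -0.08 without control replicate 3 and -0.66 without control replicate 2.

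The base ATPases form the ring that unfolds substrates and threads them into the core. Rpt5 (3R, 23752876 to 23754623) had the smallest p of the constitutive subunits. Its 3 brakeless arrays were close together at 10.66, 10.71 and 10.69, and its control arrays lay lower at 10.14, 10.47 and 10.05. The difference of 0.47 (SE 0.14, interval 0.14 to 0.80), a 1.38-fold higher level, had an unadjusted p of 0.0136 and did not pass over all probe sets (limma adjusted p = 0.710). Leaving out each array in turn gave 0.38 to 0.59. Rpt3 (X, 11125101 to 11126785) had the lowest difference of the ATPases. It read 11.2, 11.0 and 10.4 in brakeless and 10.6, 11.2 and 11.7 in control arrays, so that the groups overlapped over most of their range, with a difference of -0.28 (SE 0.33). That difference was -0.02 without control replicate 3, -0.03 without brakeless replicate 3 and -0.54 without control replicate 1. Rpt2 and Rpt4 had -0.05 (SE 0.16) and -0.09 (SE 0.15).

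The base scaffolds Rpn1 and Rpn2 and the ubiquitin receptor Rpn13, which docks on Rpn2, showed no difference between the groups beyond their spread. As a role they had the highest median pooled SD within groups, 0.58. Rpn2 (3R, 29153524 to 29157255) read 11.4, 10.8 and 9.36 in the brakeless and 9.62, 10.9 and 11.0 in the control arrays. Its pooled SD within groups of 0.93 was the highest of all members, against a median of 0.21 over the constitutive subunits and 0.37 over probe sets above the 60th percentile. Its difference was 0.02 (SE 0.62, interval -1.50 to 1.55). Rpn1 (3L, 19915051 to 19918160) read 9.63, 9.36 and 8.51 against 8.37, 9.24 and 9.47, a difference of 0.14 (SE 0.40). Rpn13 on 2R read 11.4, 11.4 and 10.5 against 10.6, 11.2 and 11.3, a difference of 0.09 (SE 0.30). All 3 genes were low in the same arrays, brakeless replicate 3 and control replicate 1. That was not particular to them, as Rpt3, Rpt4, Rpn3 and Rpn7 were also lowest in these arrays. Over the 6 arrays Rpn1 correlated with Rpn2 at r = 0.977 and with Rpn13 at r = 0.979, and Rpn2 with Rpn13 at r = 0.972. The highest correlation of all pairs of constitutive subunits was that of Rpt4 with Rpn7 (r = 0.987), and Rpt3 with Rpt4 had r = 0.972. These correlations are descriptions over 6 points that share labelling and normalization.

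**Figure D3:**
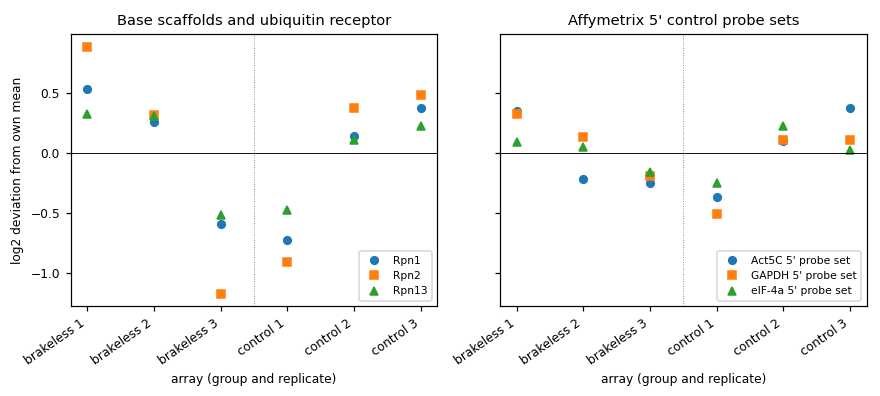
Log2 deviation of each probe set from its own mean over the 6 arrays (vertical axis) by array (horizontal axis), for the base genes Rpn1, Rpn2 and Rpn13 on the left and for 3 Affymetrix 5' control probe sets on the right; the dotted line separates the groups. Brakeless replicate 3 and control replicate 1 are the lowest arrays in both panels.

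Control probe sets of abundant transcripts moved with these 3 genes. The 5' probe set of GAPDH read 12.3, 12.1 and 11.8 in the brakeless and 11.5, 12.1 and 12.1 in the control arrays. Those of Act5C and eIF-4a were also lowest in control replicate 1 (9.19 and 10.2) and second lowest in brakeless replicate 3 (9.30 and 10.3). The excess of the 3' over the 5' signal in brakeless replicate 3 and control replicate 1 was 1.16 and 1.19 for GAPDH (1.04 to 1.24 over all 6 arrays) and 2.32 and 2.33 for eIF-4a (2.05 to 2.48). For Act5C it was 3.32 and 3.46, and the latter was the highest of the 6 arrays (2.99 to 3.46). The relation of a gene's span in the genome to its deviation also differed between arrays. Over the 26 constitutive subunits the rank correlation of span with the deviation in an array was 0.67 in brakeless replicate 1, 0.44 in brakeless replicate 2, -0.09 in brakeless replicate 3, -0.73 in control replicate 1, 0.60 in control replicate 2 and -0.17 in control replicate 3. Over 6259 genes above the 60th percentile it was 0.61, -0.02, -0.22, -0.28, 0.49 and -0.22 in the same order. Among the 26 subunits the core genes spanned 914 to 1369 bp, and all regulatory particle genes but Rpn12 spanned 1387 bp or more. The median deviation in control replicate 1 was 0.05 in the core and -0.34 in the regulatory particle. Span and particle can therefore hardly be told apart over the 26. The part of these measures in the scaffold genes' values was not tested.

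The lid, which carries the deubiquitinating enzyme, had differences in both directions. Rpn11, the metalloprotease that cuts the chain from the substrate, lies on 2L at 5058404 to 5059790. Its brakeless arrays read 11.3, 11.5 and 11.3 and its control arrays 10.7, 11.2 and 11.1, and the groups did not overlap. The difference was 0.40 (SE 0.16, interval 0.0001 to 0.79), with an unadjusted p of 0.0499 and an adjusted p of 0.998 by limma. Rpn8, the inactive relative that pairs with Rpn11, lies on 2R at 24400028 to 24404527 and read 10.99, 10.93 and 10.91 against 10.38, 10.86 and 10.63. Its brakeless arrays were again all above the control arrays, with a difference of 0.32 (SE 0.14, unadjusted p = 0.0671 and adjusted p = 0.998 by limma). Over the 6 arrays Rpn8 and Rpn11 had a correlation of 0.932, with both lowest in control replicate 1. Without that array their differences were 0.20 and 0.24.

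Rpn12, which is known to complete lid assembly, had the lowest difference of the constitutive subunits. It lies on 3L at 16583028 to 16584022. Its brakeless arrays read 11.94, 11.53 and 11.80 and its control arrays 12.32, 11.90 and 12.44, overlapping only between brakeless replicate 1 and control replicate 2. The difference was -0.46 (SE 0.19, interval -0.92 to -0.01, unadjusted p = 0.0474 and adjusted p = 0.998 by limma). Rpn5, a scaffold of the lid, had 0.40 (SE 0.25), with control replicate 3 lowest at 10.8 and the other arrays between 11.4 and 11.8, and it had 0.14 without that array. Rpn7, another scaffold, had -0.24 (SE 0.30), with control replicate 3 highest at 11.3, and 0.02 without it. The lid scaffold Rpn3 had -0.01, and Rpn6, which links lid, base and core, had 0.08.

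**Figure D4:**
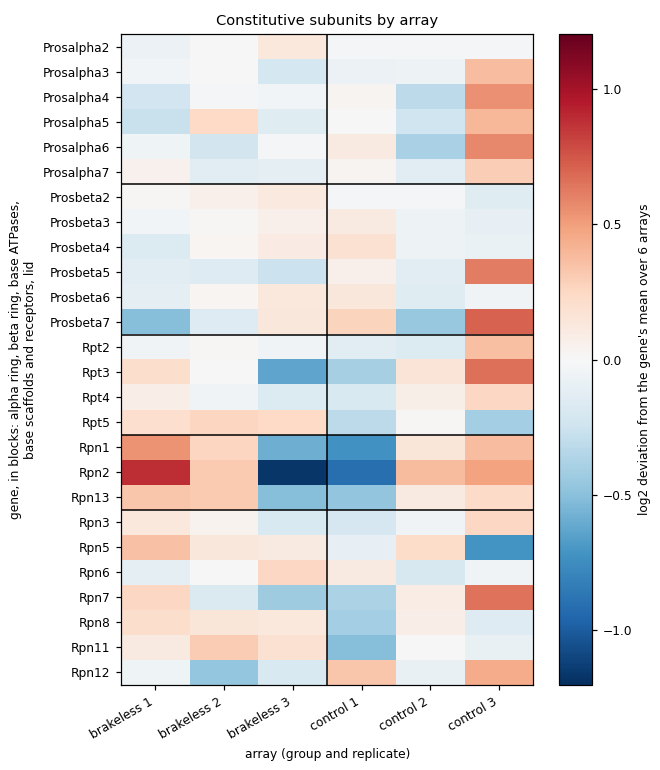
Log2 deviation of each constitutive subunit gene (rows, in blocks by role) from its mean over the 6 arrays (columns), red above and blue below the mean. Control replicate 3 is the highest array for most alpha ring genes and for Prosbeta5, Prosbeta7, Rpt3 and Rpn7. It is the lowest for Rpn5 and Rpt5. The 3 base scaffold and receptor genes are low in brakeless replicate 3 and control replicate 1, and so are Rpt3, Rpt4, Rpn3 and Rpn7.

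The genes of the complex varied together only in part. Within the core particle the median correlation over the 6 arrays was 0.30 over 66 gene pairs, within the regulatory particle 0.23 over 91 pairs, and between the particles -0.09 over 168 pairs. Without control replicate 3, a setting chosen after the data were seen, these were 0.36, 0.55 and -0.37. Control replicate 3 was the highest array for 13 of the 26 constitutive subunits, 7 of 12 in the core and 6 of 14 in the regulatory particle, while it was the highest for 31.2% of the probe sets above the 60th percentile. Its median deviation was 0.27 over the 26, and the other 5 arrays lay between -0.05 and 0.01. The cleared maternal genes were lowest in that array (median deviation -0.54). Its muscle genes were low as well (-0.74), but they were lower still in brakeless replicate 1 (-1.19). The part of embryo age or of that array in the members' values was not tested.

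Of the 14 paralogs, Rpt3R stood out by its difference and its signal. Rpt3R (3R, 9754735 to 9756510), a copy of the ATPase gene Rpt3, read 6.79, 6.78 and 7.33 in brakeless arrays and 8.05, 7.94 and 8.74 in control arrays. Each brakeless array was below each control array by at least the gap from 7.33 to 7.94. The difference was -1.28 (SE 0.27, interval -1.93 to -0.62), a 2.42-fold lower level in brakeless embryos. It had the smallest p of all members (0.00301) and did not pass over all probe sets (limma adjusted p = 0.346). Leaving out each array in turn gave -1.46 to -1.03, and without control replicate 3 it was -1.03.

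The constitutive partner Rpt3 overlapped between the groups. The log2 value of Rpt3R minus that of Rpt3 was -4.45, -4.25 and -3.07 in the brakeless and -2.58, -3.24 and -2.94 in the control arrays. The groups overlapped, and the contrast, chosen after its values were seen, was -0.998 (exact two-sided permutation test, p = 0.2). The smallest p that 3 against 3 arrays allow is 0.1, so the test could not show whether the genes differ. The suffix of the Rpt3R probe set marks it as shared by transcripts of the same gene. The suffix of those for Prosbeta5, Prosbeta7, Rpn6, Rpn13 and Rpn12R allows for probes that match more than 1 gene, so their values are less certain.

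Because several paralogs are known from the male germ line, testis genes were read beside Rpt3R. All 16 listed genes were measured, and their log2 summed level was 7.50 to 7.55 in brakeless arrays and 7.78 to 7.95 in the control arrays. Of the 16 differences 7 were positive and 9 negative, with a median of -0.01, which was 0.04 without control replicate 3. The lowest was that of aly, a regulator of spermatocyte transcription, which read 2.83, 2.96 and 2.88 against 3.70, 5.06 and 4.04. Its difference was -1.38 (SE 0.35) and that of mia, another such regulator, -0.49 (SE 0.12), and neither passed (limma adjusted p of 0.545 and 0.482). The groups did not overlap in 3 of the 16 genes, aly and mia on the lower side and can on the higher side, against 10.1% of all probe sets. The dim genes can and sa had 0.11 (SE 0.10) and 0.13 (SE 0.13). For bol the difference was -0.60 (SE 0.55), and its groups overlapped. The brightest of the 16 was mia, at 5.92 in brakeless and 6.41 in control embryos, so it weighed most in the summed level. The abundant late sperm markers dj, ProtA, ProtB and Mst87F had group means between 2.37 and 2.65, below the median of 3.67 over all probe sets. Not all listed testis genes were that dim, and Mst98Ca read 4.15 in brakeless and 4.17 in control embryos. The part of these genes in the values of Rpt3R was not tested.

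The other 13 paralogs were dim. Their means over the 6 arrays lay between 2.74 and 4.13, around the median of all probe sets, and detection calls were not used here. Prosbeta4R2, a copy of the beta ring gene Prosbeta4, had the highest difference. It read 3.002, 3.14 and 2.99 in brakeless and 2.89, 2.68 and 2.76 in control arrays, apart by a small margin, with a difference of 0.27 (SE 0.11, unadjusted p = 0.0463 and adjusted p = 0.998 by limma). Prosbeta2R2, a copy of the catalytic Prosbeta2, had -0.50 (SE 0.24), with 3.56, 3.74 and 3.65 against 3.69, 4.11 and 4.64. Its groups overlapped in control replicate 1, and its difference was -0.25 without control replicate 3. The remaining 11 ranged from -0.11 for Prosalpha4T1 to 0.12 for Prosalpha3T, and Prosalpha6T, which male fertility requires, had 0.10 (SE 0.17).

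The members on chromosome arm 2R, which carries brakeless and the FRT insertion of the cross, had differences in both directions. The 9 genes there had a median difference of 0.006, with 5 positive and 4 negative, from -0.37 for Prosbeta5 to 0.32 for Rpn8. The members of the other chromosome arms had medians from -0.09 for the 5 on X to 0.06 for the 8 on 2L.

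Genes that feed and regulate the proteasome were compared from lists of genes known for these roles, and none of the 19 measured passed the test. Of the 12 listed for ubiquitin supply and delivery 10 were measured, with 8 positive and a median difference of 0.15. The segregase cofactor Ufd1, part of the machine that extracts ubiquitinated proteins, was 9.81 in brakeless and 9.50 in control embryos. Its difference of 0.32 (SE 0.10) had an unadjusted p of 0.0186 and an adjusted p of 0.799 by limma. Of the same machine, TER94 had -0.09 (SE 0.49) and Npl4 0.19 (SE 0.29), and in each the groups overlapped. Usp14, a deubiquitinase that rides on the base, read 0.27 higher (SE 0.12, limma adjusted p = 0.998). In Ufd1 and Usp14 the brakeless arrays lay above the control arrays. The shuttle receptor Rad23 had the highest difference at 0.75 (SE 0.65), which rested on control replicate 3. Rad23 read 9.50 there and between 11.69 and 12.03 in the other arrays, and its difference was -0.04 without that array. Uch-L5, the deubiquitinase that docks on Rpn13, had the lowest difference at -0.36 (SE 0.26), and -0.13 without control replicate 3. The ubiquitin genes Ubi-p5E, Ubi-p63E, RpL40 and RpS27A had differences of 0.11, 0.26, 0.12 and 0.08. With 1 array left out the median of the list ran from 0.07 (control replicate 3) and 0.08 (brakeless replicate 1) up to 0.27 (control replicate 2) and 0.32 (brakeless replicate 3).

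The 4 genes of assembly and regulation had a median of -0.10. They were the assembly chaperone gene Pomp at -0.23 (SE 0.18), the regulators PI31 at -0.17 (SE 0.12) and REG at -0.04 (SE 0.10), and Sem1, the smallest lid subunit, at 0.39 (SE 0.21). Sem1 read 10.97 in control replicate 3 and between 11.53 and 11.87 in the other arrays, and its difference was 0.17 without that array. The 5 genes of the pathway that in mammals raises proteasome transcription through Nrf1 had a median of 0.08, which was -0.01 without control replicate 3 and -0.02 without brakeless replicate 1. Among them cnc, the fly relative of that factor, had the highest difference at 0.37 (SE 0.58), and its partner maf-S the lowest at -0.20 (SE 0.31). The value of cnc rested on control replicate 3, where it read 5.26 against 7.05 and 7.47 in the other control arrays. Without that array its difference was -0.30. Both differences were smaller than their SE (limma adjusted p = 0.998 for both).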

How the data were processed

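RNA of 6 embryo pools was measured on 1-colour Affymetrix arrays. Each deposited value is the log2 signal of 1 probe set, made by the authors with RMA, per the submitters' processing notes; the sources used here give neither its version nor its settings. RMA equalises the distributions of the arrays, so a difference in total RNA per embryo would not show. Arrays have no depth, so precision is limited by their number. Of 18952 probe sets, 183 Affymetrix controls were left out of the tests. Names came from the platform annotation and were matched by gene number to RefSeq (Release 6 plus ISO1 MT) for all 40 members; 3 list genes were found under a newer symbol.

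The groups were tested in R 4.3.3 by limma 3.58.1 (a linear model with moderated errors, no covariate, two-sided, Benjamini-Hochberg over 18769 probe sets, threshold 0.05) and checked on simulated data. Intervals are 95% intervals of the moderated fit. The single-value permutation test was exact (scipy 1.17.1), and figures were drawn with matplotlib 3.10.9. The members and lists were chosen with earlier results of these data known. Values in every array are given for members whose groups do not overlap, the catalytic subunits and the highest and lowest difference of each role, other members by choice. Alternatives were trend and robust eBayes, array weights, quantile normalization again, median centring, filters on dim probe sets, a replicate block, the mean of all probe sets of a gene, and each array left out.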

Additional observations from a re-analysis of the deposited data

How the results depend on the processing

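No proteasome gene and no measured gene of the 3 pathway lists passed the test in any of the 14 alternatives; the smallest member adjusted p was 0.120, for Rpt3R with array weights. Same-numbered arrays did not deviate together (correlations -0.40, -0.23 and -0.32). The other pairs ran from -0.29 to 0.55, the latter for brakeless replicate 3 with control replicate 1. Such correlations cannot show which arrays shared a collection. The description of control replicate 3 carries another number than its title, so the third same-numbered pair, and with it the block, is in doubt. With each number once per group, the replicate block cannot change a difference, only its error and p. The difference of Rpt3R therefore stayed at -1.28, and 0 members passed. The median of the constitutive subunits stayed between -0.13 (without control replicate 1) and 0.04 (without control replicate 3), and was above 0 also with median centring (0.00710) and array weights (0.0128). At an unadjusted p under 0.05 there were 3 members with trend and robust or quantile normalization, against 6 with array weights and 4 with the replicate block. There were 2 when the probe sets of a gene were averaged over the whole table. Each member has only 1 probe set, so no member was averaged there and only its moderated error and p moved. The filters at the 40th and 60th percentile left 31 and 27 of the 40 members in the fit, 2 and 1 of them at that p, so no paralog median was computed there. The sign held in all alternatives for 18 members. Trend and robust eBayes, the filters, the replicate block and the mean of all probe sets leave a member's difference unchanged. A sign could turn only with array weights, quantile normalization, centring or an array left out. Array weights turned Prosalpha5 to 0.0896, Prosbeta3 to -0.0123, Prosbeta6 to -0.00683, Rpt2 to 0.0600, Rpn3 to 0.101 and Prosbeta2R1 to 0.0811, and Rpn3 also turned with quantile normalization (0.00758) and centring (0.0153). Leaving out 1 array turned the sign of 22 members, whose log2 differences then ran from -0.0145 to 0.0824 for Prosalpha2, -0.386 to 0.0444 for Prosalpha4, -0.262 to 0.0587 for Prosalpha5, -0.444 to 0.0414 for Prosalpha6, -0.0098 to 0.0934 for Prosbeta3, -0.085 to 0.0574 for Prosbeta4, -0.034 to 0.105 for Prosbeta6, -0.141 to 0.124 for Rpt2, -0.203 to 0.0134 for Rpt4, -0.189 to 0.467 for Rpn1, -0.422 to 0.615 for Rpn2, -0.126 to 0.367 for Rpn13, -0.112 to 0.113 for Rpn3, -0.0168 to 0.164 for Rpn6, -0.490 to 0.0244 for Rpn7, -0.0708 to 0.226 for Prosalpha4T2, -0.0393 to 0.251 for Prosalpha6T, -0.242 to 0.0868 for Prosbeta2R1, -0.0734 to 0.115 for Prosbeta5R1, -0.0463 to 0.158 for Prosbeta5R2, -0.0376 to 0.0922 for Rpn13R and -0.00275 to 0.155 for Rpt4R. Among 16 of the list genes named, tried in the same way after the data were seen, leaving out 1 array turned 5. Rad23 ran from -0.0351 to 1.23, cnc from -0.298 to 0.806 and maf-S from -0.447 to 0.0747. Ubi-p5E ran from -0.116 to 0.316 and REG from -0.0739 to 0.0198. The cause was not tested. Signals near the background limit what can be read from 13 of the 14 paralogs.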
